A study of Mus musculus with 11 samples.

Results

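Interferon-stimulated genes are the genes that cells switch on when interferon reaches their receptors. Type I interferon acts through the kinases JAK1 and TYK2 and the complex ISGF3, which includes STAT2 and IRF9 and binds interferon-stimulated response elements (ISRE), whereas interferon gamma acts through gamma-activated sites (GAS). The products block viral entry, translation or replication, sense viral nucleic acids, tag proteins with ubiquitin-like or ADP-ribosyl groups, and process antigen for presentation. A set of 40 of these genes was examined, chosen by name: antiviral effectors (the Ifit, Mx and Oas families, Rsad2, Bst2, Eif2ak2, Samd9l), transcription factors (Irf1, Irf7, Irf9, Stat2), sensors (Ifih1, Dhx58, Zbp1), guanylate-binding proteins (Gbp2, Gbp3, Gbp5, Gbp7), modifiers (Isg15, Usp18, Herc6, Parp9, Parp14, Dtx3l, Trim25), antigen presentation genes (Nlrc5, Psmb8, Psmb9, Tap1) and 4 others (Ifi44, Ifi35, Rtp4, Xaf1).

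Accessible chromatin around these genes was measured by ATAC-seq, whose transposase inserts adapters into open chromatin. The 11 libraries came from sorted mouse CD8 T cells with a yellow fluorescent protein (YFP) reporter of Tcf7, the gene of the memory-associated factor TCF-1. On day 9 of culture the cells had been YFP-low at the day 3 sort and YFP-high at the day 9 sort (low_to_high, 3 libraries), YFP-high at both (high_to_high, 2 libraries) or YFP-low at both (low_to_low, 3 libraries). Effector cells after 3 days of activation outside the animal, antigen-experienced splenocytes (CD44+ CD62L+ YFP+) and naive splenocytes (CD44- CD62L+ YFP+) had 1 library each. All cells carried the reporter, and the labels used here give no age, strain or further treatment, and leave unsaid if a replicate is its own animal or culture. The p-values therefore measure the spread between these samples, which may be technical. A lower value can mean that fewer cells had the site open or that it was less open per cell, which cannot be told apart in bulk libraries.

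A region is a set of peaks that overlap across libraries. Its value in a library is the normalized tag count: how many tags of every 10 M fell into the window of its peak, with windows of equal width throughout a library. Each region was given to whichever protein-coding gene body lay closest, up to 100000 bp away. Of 111041 regions, 191 were member regions, and they lay at 38 of the 40 genes. Mx1 and Mx2 had none, because the gene table used does not class them as protein-coding. Nlrc5, the activator of class I antigen presentation genes, had 19 regions, Irf1 had 18, the RNA sensor gene Ifih1 had 10, and Gbp5 and Samd9l had 9 each. At the other end, 7 genes (Ifit1, Isg15, Oas1a, Oasl1, Irf9, Bst2 and Psmb8) had 1 region each. Assignment by distance does not show which gene a region acts on.

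Depth ran from 20.8 to 59.97 M tags per library. Peaks held 9.01 to 12.5% of the tags at day 9 and 9.08% in the effector library, but 15.8% in antigen-experienced and 15.0% in naive cells. Peak windows were 172 bp wide except in the naive library (132 bp) and high_to_high replicate 2 (136 bp). All 9 CD8 T cell markers had regions. Of the B cell markers, Cd79a was at 0 in every library, but summed values were 39.39 to 144.1 at Pax5, 41.29 to 301.49 at Ebf1, 11.56 to 76.5 at Cd22 and 11.93 to 59.59 at Blk. Of the myeloid markers, Csf1r was at 0 in every library, but the sums were 110.56 to 202.45 at Fcgr1, 43.33 to 140.69 at Itgam and 30.49 to 89.53 at Spi1. The part of such cells in the results below was not tested.

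Promoter sequences of 7 members are shown. Those other than Samd9l are shown because they hold letters that match the core of ISRE or GAS elements. Samd9l is shown because its regions had the largest decreases in effector beside naive cells. The sequences are the 250 bases before the gene start in RefSeq's table for build GRCm38.p6, the mm10 assembly. Isg15 (chr4:156200819-156201068, minus strand), the ubiquitin-like protein, Ifit1 (chr19:34640639-34640888, plus strand), which binds viral RNA ends, and Rsad2 (chr12:26456453-26456702, minus strand), the antiviral enzyme viperin, hold ISRE letters. Bst2 (chr8:71537473-71537722, minus strand), the virion tether tetherin, and Gbp7 (chr3:142530086-142530335, plus strand) hold ISRE and GAS letters, and Irf1 (chr11:53769764-53770013, plus strand) holds GAS letters. Samd9l (chr6:3399572-3399821, minus strand), an antiviral factor that restrains translation, holds neither. Capitals mark every match, on either strand, to the ISRE core (GAAA, any 2 bases, GAAA) or the GAS core (TTC, any 3 bases, GAA), and overlapping matches were each counted.
Isg15: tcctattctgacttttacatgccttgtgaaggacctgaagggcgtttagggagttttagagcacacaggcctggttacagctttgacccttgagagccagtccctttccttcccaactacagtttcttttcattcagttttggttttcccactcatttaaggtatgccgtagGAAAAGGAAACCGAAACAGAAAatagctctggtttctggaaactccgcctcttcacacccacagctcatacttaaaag
Ifit1: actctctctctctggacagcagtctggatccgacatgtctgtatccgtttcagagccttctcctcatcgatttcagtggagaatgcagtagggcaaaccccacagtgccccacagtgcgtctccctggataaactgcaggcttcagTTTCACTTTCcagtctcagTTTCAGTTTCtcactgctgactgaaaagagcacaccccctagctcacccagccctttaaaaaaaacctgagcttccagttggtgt
Rsad2: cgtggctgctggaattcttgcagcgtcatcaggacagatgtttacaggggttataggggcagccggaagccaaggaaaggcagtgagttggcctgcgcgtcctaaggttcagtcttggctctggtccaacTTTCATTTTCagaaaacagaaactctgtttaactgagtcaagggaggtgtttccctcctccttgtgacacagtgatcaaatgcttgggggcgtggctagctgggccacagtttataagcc
Bst2: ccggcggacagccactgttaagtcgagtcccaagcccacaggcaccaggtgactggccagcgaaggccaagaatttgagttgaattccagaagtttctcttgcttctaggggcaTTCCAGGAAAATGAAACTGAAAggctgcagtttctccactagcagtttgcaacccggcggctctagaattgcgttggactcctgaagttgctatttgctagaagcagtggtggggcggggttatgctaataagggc
Gbp7: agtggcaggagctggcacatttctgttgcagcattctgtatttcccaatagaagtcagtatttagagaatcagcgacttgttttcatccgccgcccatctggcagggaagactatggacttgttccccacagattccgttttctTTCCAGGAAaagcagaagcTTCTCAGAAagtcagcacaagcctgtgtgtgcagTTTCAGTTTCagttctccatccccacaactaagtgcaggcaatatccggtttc
Irf1: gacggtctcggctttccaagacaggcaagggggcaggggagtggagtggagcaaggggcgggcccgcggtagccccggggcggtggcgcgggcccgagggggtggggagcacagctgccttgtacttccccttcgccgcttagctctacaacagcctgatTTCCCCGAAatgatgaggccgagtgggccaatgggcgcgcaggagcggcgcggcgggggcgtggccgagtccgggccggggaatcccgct
Samd9l: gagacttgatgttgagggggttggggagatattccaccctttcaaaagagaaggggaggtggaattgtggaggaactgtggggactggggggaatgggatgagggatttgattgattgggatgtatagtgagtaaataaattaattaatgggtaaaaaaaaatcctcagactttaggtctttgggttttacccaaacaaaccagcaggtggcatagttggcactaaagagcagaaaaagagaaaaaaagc

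In Isg15 the capitals are 3 overlapping ISRE cores that begin 78, 72 and 66 bases before the start. In Ifit1 they are 2 cores, 104 and 85 bases before it, and in Rsad2 a single core 120 bases before it, all read on the opposite strand. The Bst2 run joins a GAS core at 136 with ISRE cores at 130 and 124 bases before the start. Windows from 250 bases before to 50 after the start were in the table for 30 members, and 14 of them (46.7%) held an ISRE core, against 4.02% of all 26794 genes in the table. GAS letters were in 9 of the 30 (30%), against 9.61% of all genes. Of 21 ISRE matches in member windows, 16 lay inside a called region, as did 8 of 11 GAS matches. Whatever their letters, 26 of the 34 member windows overlapped a called region. The share of matches inside called regions over all genes is not given here, so these counts say nothing particular about the motifs. A match is a string of letters and no evidence of binding, and sequence outside these windows was not used.

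Promoter accessibility was measured for 30 members in 29 regions, since Psmb9 and Tap1, which encode an immunoproteasome subunit and a peptide transporter subunit, share a promoter. In 21 of these regions every library had a peak. Of all member regions 29.3% had a peak in every library, against 21.1% of all regions. The share over promoters of all genes is not given here. The highest mean over libraries was at Irf9, the DNA-binding subunit of ISGF3, where the 3 low_to_high libraries had 65.6, 63.0 and 56.6, the 2 high_to_high libraries 57.3 and 59.1, and the 3 low_to_low libraries 60.8, 71.6 and 69.2 normalized tags. The same Irf9 region had 37.3 in effector, 111.0 in antigen-experienced and 109.4 in naive cells. The splenocytes were highest and the effector library lowest, with the day 9 groups between them and overlapping.

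The same order held at the next promoters by mean. Irf1, a factor that drives many interferon gamma targets, had 45.6 to 67.7 normalized tags at day 9 (8 libraries, median 59.65), 31.7 in effector, 106.5 in antigen-experienced and 125.1 in naive cells. At the shared Psmb9 and Tap1 promoter the day 9 libraries ran from 47.9 to 71.3 (median 53.0), against 30.8 in effector, 73.3 in antigen-experienced and 77.3 in naive cells. Stat2, a subunit of ISGF3, had 39.7 to 60 at day 9 (median 50.6), 33.3 in effector, 86.7 in antigen-experienced and 80.9 in naive cells. Trim25, a ubiquitin ligase of the RIG-I pathway, had 39.6 to 57.5 (median 45.4), 27.6, 85.6 and 88.2 in the same order, and Rsad2 had 38.3 to 51.5 (median 43.6), 16.5, 72.4 and 69.2. At all of these 6 promoters the effector value was below every other library and both splenocyte values were above every day 9 library. These are deposited values, and regions of any gene shifted in the same order. Without centring, the median log2 difference over all regions was -0.71 for effector and -0.41 for day 9 against naive cells, and 0.42 for day 9 against effector. Once centred, promoter regions of all genes still had a median of -0.38 for effector against naive cells.

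**Figure D1:**
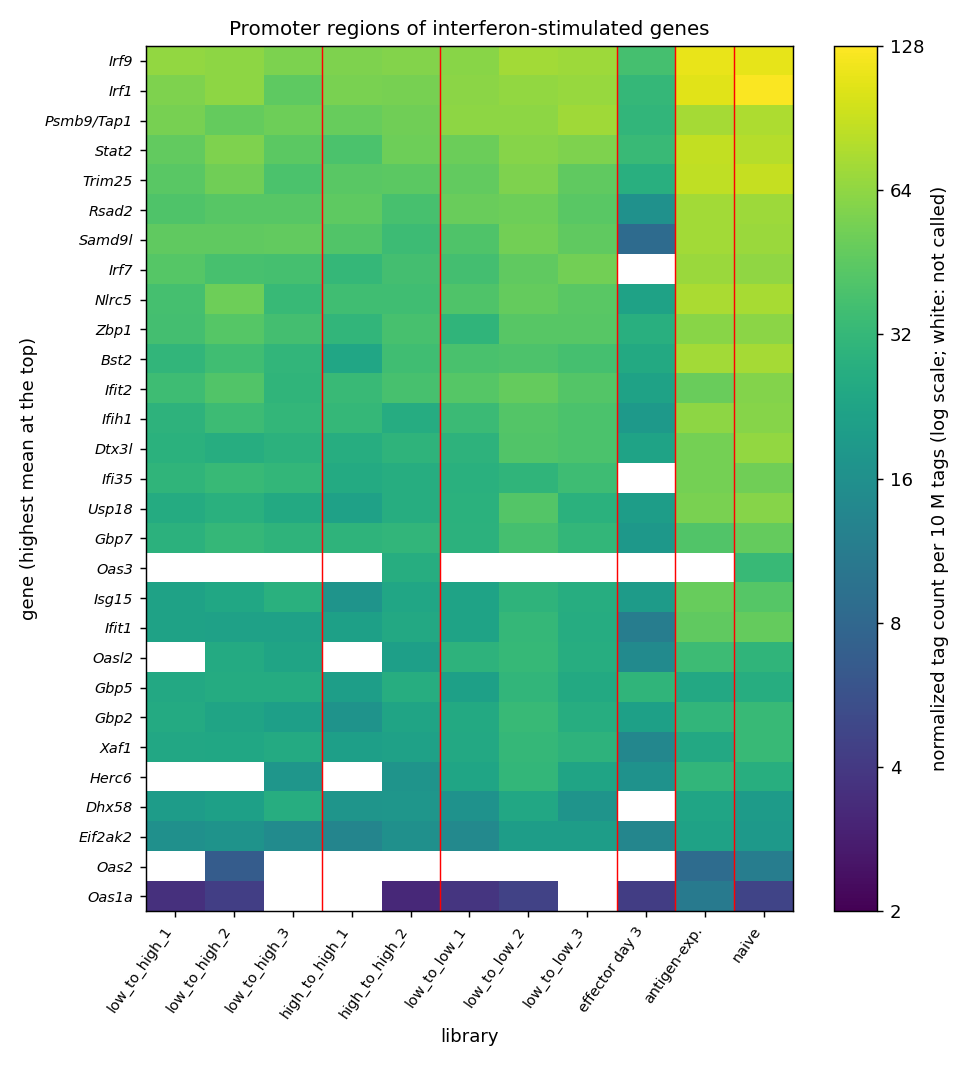
Normalized tag count per 10 M tags (colour, log scale) of the 29 promoter regions (rows, highest mean at the top) in the 11 libraries (columns, grouped by red lines); white cells had no called peak. The effector column is the darkest for most rows. It has 5 white cells, as has the column of high_to_high replicate 1. The day 9 columns have 1 to 5, the antigen-experienced column 1 and the naive column 0.

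The 3 lowest promoter means were at Oas1a, Oas2 and Eif2ak2, which encode double-stranded RNA responders: synthetases of the RNase L activator and the kinase PKR. Oas1a had 3.25 to 4.54 in the 5 day 9 libraries with a peak (low_to_high replicates 1 and 2, high_to_high replicate 2, low_to_low replicates 1 and 2), 4.23 in effector, 10.9 in antigen-experienced and 4.66 in naive cells. Those values lie near the weakest peaks of the lists, at 2.25 to 4.32, so a missing Oas1a peak says little. Oas2 had a peak of 6.68 in low_to_high replicate 2, 8.73 in antigen-experienced and 11.7 in naive cells and none elsewhere. Eif2ak2 had 13.2 to 20.4 at day 9, 13.6 in effector, 21.9 in antigen-experienced and 18.9 in naive cells.

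Day 9 lists lacked 1 to 5 of the 29 promoter regions, the effector list 5, the antigen-experienced list 1 and the naive list 0. Over all member regions, 43 of 191 (22.5%) had a peak in naive and none in effector cells, against 22.6% of all regions. The effector list lacked Irf7, the master regulator of type I interferon genes, and Ifi35, Dhx58, Oas2 and Oas3. Irf7 had 32.1 to 52.6 at day 9, no peak in effector, 68.2 in antigen-experienced and 63.7 in naive cells. The effector library did have a peak of 15.3 (chr7:141265887-141266059) at 185 bp from the Irf7 promoter region. Ifi35 had 25.4 to 35.4 at day 9, no peak in effector, 53.3 in antigen-experienced and 51.8 in naive cells. Dhx58, which encodes the RNA sensor LGP2, had 16.7 to 26.6 at day 9, no peak in effector, 23.0 in antigen-experienced and 19.6 in naive cells. The nearest effector peaks were 1641 bp from the Ifi35 and 1191 bp from the Dhx58 promoter region. The caller also removed 36.4 to 53.3% of a library's putative peaks by its local filter, so an unlisted promoter is not known to be closed.

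Oas3 was listed at 26.9 in high_to_high replicate 2 and at 32.8 in naive cells alone, the 2 libraries with the narrowest windows. The other 9 libraries had a peak 1716 bp away, of 38.2 to 108.0. Oasl2 was missing from low_to_high replicate 1 and high_to_high replicate 1, with 20.8 to 32.3 in the other day 9 libraries, 14.6 in effector, 34.5 in antigen-experienced and 30.2 in naive cells. Both libraries without it had a peak 229 bp away, of 30.5 and 28.9. Herc6, which encodes a ligase that attaches ISG15 in mouse, was missing from low_to_high replicates 1 and 2 and high_to_high replicate 1. Its listed promoter values were 17.2 to 31.4 at day 9, 16.7 in effector, 30.7 in antigen-experienced and 27.2 in naive cells. The 3 libraries without it had a peak 51 bp from it (chr6:57581276-57581516), of 22.8 and 27.1 in low_to_high and 25.2 in high_to_high. No promoter region was called for 10 members: Ifit3, Mx1, Mx2, Oasl1, Ifi44, Gbp3, Parp9, Parp14, Rtp4 and Psmb8. Such an absence does not show that the gene start was closed. A region over the Ifit3 span start (chr19:34582949-34583186) averaged 26.94 over YFP-high day 9 libraries and 31.1 over YFP-low ones. A region inside Gbp3 (chr3:142560442-142560736) had means of 46.62 and 54.57 in that order. Regions 126 bp from Parp14 (20.04 and 22.7) and 1039 bp from Oasl1 (38.4 and 49.13) were also called.

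Effector and naive cells were then compared at these genes. Effector cells were activated in culture and naive cells were splenocytes, so activation cannot be told apart from culture. In the effector library, 12 of the 71 member regions called in both libraries were at least 2-fold lower than in the naive library, and 3 were at least 2-fold higher. Each difference is on the log2(value + 1) scale, after the median over regions called in both libraries was set to 0, and with 1 library each there is no test. The shares were 16.9% lower and 4.23% higher for member regions, against 6.1% lower and 14.6% higher for all 32333 regions. The median member region was 0.51 lower on that scale. Among member regions over a promoter window of any gene, 5 of 22 (22.7%) were at least 2-fold lower, against 3.54% of all such regions, and 0 were higher, against 5.54%.

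Samd9l carried the 2 largest decreases. Its promoter region (chr6:3399411-3399617) had 8.55 normalized tags in effector and 68.0 in naive cells, a centred log2 difference of -2.14. A region 26029 bp from the gene (chr6:3346000-3346228), over the promoter window of the locus Gm20559, had 6.96 in effector and 77.7 in naive cells, a difference of -2.59. These values rest on 45 and 37 tags in effector and 255 and 292 in naive cells. Their 95% Poisson intervals, which cover counting error only, are 6.17 to 11.3 and 4.9 to 9.59 in effector, against 59.9 to 76.8 and 69.1 to 87.3 in naive cells.

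The next 3 regions lay in genes of other roles. Inside Rtp4, which encodes a chaperone of receptor transport, a region at chr16:23609804-23610050 had 5.55 in effector and 40.1 in naive cells, a difference of -1.94. For Dtx3l, a ubiquitin ligase that pairs with PARP9, a region 20797 bp from the gene (chr16:35905411-35905718) had 7.90 in effector and 47.3 in naive cells, a difference of -1.73. Near Psmb9 a region 10603 bp away (chr17:34171177-34171427) had 16.4 in effector and 73.2 in naive cells, a difference of -1.38. The other 7 regions at least 2-fold lower were at Oasl1, Parp9, Rsad2, Ifit1, Ifit2 and, with 2 regions, Irf1, with differences of -1.34 to -1.08.

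By role, 17 of 19 regions of antiviral effector genes and 14 of 17 regions of the modifier genes lay below the median region, with medians of -0.62 and -0.67, and 6 and 2 of them were at least 2-fold lower. Regions of transcription factor genes had a median of -0.61 (7 regions, 2 of them at least 2-fold lower). Regions of the guanylate-binding protein genes had a median of -0.02 over 9 regions, with 0 at least 2-fold lower. The promoter of Gbp5 was among the 5 highest differences, with 30.3 in effector and 26.5 in naive cells (0.90), as was a region 2073 bp from Gbp2, with 11.8 and 10.8 in the same order (0.83). Antigen presentation genes had a median of 0.05 over 8 regions, with 1 at least 2-fold lower and 2 higher. Sensor genes had a median of -0.38 over 8 regions and 0 past 2-fold, and the other stimulated genes a median of -0.51 over 3 regions, with 1 lower. The roles were not tested against each other.

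The 3 higher regions were at Psmb9, Usp18 and Nlrc5. A region 1795 bp from Psmb9 (chr17:34179988-34180235) had 25.1 in effector and 6.0 in naive cells, a difference of 2.61. Usp18, which encodes the protease that removes ISG15 and dampens receptor signalling, had a region 7415 bp away (chr6:121238293-121238491) with 21.7 in effector and 11.7 in naive cells (1.55). A region inside Nlrc5 (chr8:94483691-94483896) had 9.78 in effector and 7.46 in naive cells (1.06), and there the counting intervals, 7.3 to 12.8 and 4.96 to 10.8, overlap before centring.

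**Figure D2:**
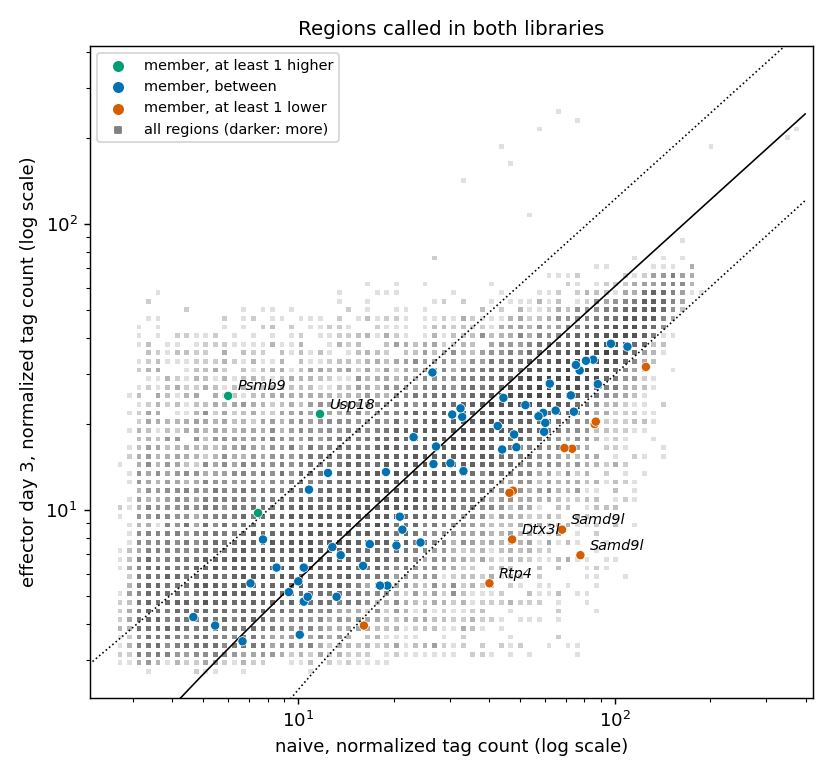
Normalized tag count in the effector library (vertical, log scale) against the naive library (horizontal, log scale) for regions called in both; grey squares are all 32333 regions, circles the 71 member regions coloured by their centred log2 difference, the solid line the median ratio and the dotted lines 1 above and below it. Strong regions of any gene sit below the solid line, and Samd9l, Rtp4 and Dtx3l sit farthest below it among the members.

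Strong regions as a class were lower in the effector library, which bears on the medians above. Split by level after the data were seen, all regions with a mean of 40 or more over both libraries had a median of -0.57 and 10.2% at least 2-fold lower. The 19 member regions of that level had a median of -0.82 and 6 (31.6%) at least 2-fold lower. From 20 to 40, all regions had a median of -0.17 with 10.4% lower, and 22 member regions had a median of -0.46 with 5 (22.7%) lower. Restricted to regions with a mean of at least 20 and centred on them, the member median moved to -0.26. As deposited, without centring, it was -1.22, against -0.71 for all regions, and 44 member regions were lower and 1 higher, against 35.5% and 4.9% of all regions.

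Summed as deposited, without centring, marker lists of other cells were not uniformly higher in the effector library. The summed values of the B cell list were 408.0 in effector and 148.8 in naive cells, over 41 and 18 regions, of which Ebf1 gave 301.49 and 41.29, with Cd79a and Cd79b at 0 in effector. The effector library had the smaller sum, beside the naive one, for the myeloid (286.1 and 465.7), NK cell (243.7 and 487.7), CD4 and regulatory T cell (93.8 and 273.9) and plasmacytoid dendritic cell lists (322.6 and 401.3), and for the CD8 T cell list (742.1 and 2131.4). The erythroid sums were 72.1 and 72.7. Over regions called in both libraries, the centred medians differ from this account. They were 0.91 for the B cell, 0.50 for the myeloid, 0.44 for the plasmacytoid dendritic cell and 0.52 for the erythroid list. The NK cell list had -0.12, the CD4 and regulatory T cell list -0.74 and the CD8 T cell list -0.18. The part of these lists, of the lower share of tags in peaks and of the wider windows in the effector library was not tested.

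Against antigen-experienced cells the effector library showed like values, with the effector library in common. Of 73 member regions, 12 (16.4%, against 5.21% of all regions) were at least 2-fold lower in effector, 4 (5.48%, against 12.5%) were higher, and the median was -0.30. The 5 lowest were the same Samd9l, Dtx3l and Rtp4 regions (-2.45, -2.01, -1.94 and -1.80) and a region inside Ifit2 (chr19:34570095-34570345) with 3.95 in effector and 25.4 in antigen-experienced cells (-1.50). The 4 higher regions were at Psmb9 (1.49), the Gbp5 promoter (1.22), Zbp1, a sensor of Z-form nucleic acid (1.09), and Gbp7 (1.08). The fifth was inside Parp14, with 6.30 in effector and 6.18 in antigen-experienced cells (0.94). Of 22 member regions over a promoter window, 3 (13.6%, against 1.4% of all such regions) were lower and 1 (4.55%, against 4.37%) was higher. Among regions with a mean of 40 or more, 5 of 19 member regions (26.3%) were lower, against 7.34% of all. As deposited, 43 of the 73 were lower and 0 higher, against 45.7% and 2.79% of all regions, and the medians were -1.22 and -0.92.

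Day 9 cells were set against the effector library to see whether the low regions stayed low. This is the same single library in which those regions were low. A value low there by chance would count in both comparisons, so they are not independent. Of the 59 member regions called in all 8 day 9 libraries and in the effector library, 8 (13.6%, against 5.2% of all regions) were at least 2-fold higher at day 9 and 0 (against 4.72%) were lower. The median was 0.30, and the share of tags in peaks differed less here (9.01 to 12.5% at day 9, 9.08% in effector). The 5 largest were the Samd9l regions at 26029 bp (45.24 ± 6.51 at day 9, SD, n = 8, against 6.96 in effector, 2.10) and at the promoter (44.42 ± 5.56 against 8.55, 1.82), and those of Ifit2 (24.54 ± 3.76 against 3.95, 1.93), Dtx3l (40.54 ± 5.34 against 7.90, 1.79) and Rtp4 (27.0 ± 5.61 against 5.55, 1.65). Every day 9 library was above the effector library at these 5 regions, which the rule for counting a region as higher required. Without low_to_high replicate 2, the count of lower regions was 2 (against 4.89% of all regions): one of Zbp1 (chr2:173186494-173186737, -1.01) and one of Gbp7 (chr3:142550166-142550576, -1.24), which has no peak in the library left out and was named after its values were seen. Over promoter windows, the 2 Samd9l regions of 19 (10.5%, against 0.656% of all such regions) were higher and 0 (against 1.25%) were lower.

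Higher values at day 9 were also found near Ifit3 (28.5 ± 5.72 against 7.52, 1.35), Gbp3 (17.05 ± 3.16 against 5.17, 1.11) and Irf1 (35.36 ± 6.18 against 11.5, 1.10). At the other end were Zbp1 (9.13 ± 1.84 at day 9 against 13.5 in effector, -0.96), Gbp7 (9.161 ± 1.86 against 12.1, -0.81), the Gbp5 promoter (25.12 ± 3.17 against 30.3, -0.69), Nlrc5 (29.78 ± 5.26 against 35.1, -0.67) and Gbp2 (10.33 ± 0.818 against 11.8, -0.60). By role, 15 regions of antiviral effector genes had a median of 0.54 and 10 regions of the guanylate-binding protein genes a median of -0.30. As deposited, the member median was 0.72 and that of all regions 0.42, and 13 member regions were higher and 0 lower, against 11.4% and 1.98% of all regions.

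In 6 of the 56 member regions called in all 11 libraries, the effector library was at least 2-fold lower than each splenocyte library and than the day 9 mean, a share of 10.7% against 2.88% of all regions. These were the 2 Samd9l regions and those of Rtp4, Dtx3l, Ifit2 and Irf1 (chr11:53794916-53795168). At the Irf1 region, 16542 bp from the gene, the low_to_high libraries had 33.3, 33.1 and 34.3, the high_to_high libraries 27.1 and 30.4, the low_to_low libraries 44.6, 44.2 and 35.9, effector 11.5, antigen-experienced 63.3 and naive cells 46.4. At the Samd9l promoter the same libraries had 46.1, 46.1 and 47.0, then 41.6 and 34.4, then 40.6, 53.2 and 46.4, with 8.55 in effector, 72 in antigen-experienced and 68.0 in naive cells. The effector value was the lowest of the 11 at each of the 6 regions, which follows largely from how they were picked. At Ifit2 the day 9 libraries (19.4 to 30.7) were all above the naive library (16.1).

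**Figure D3:**
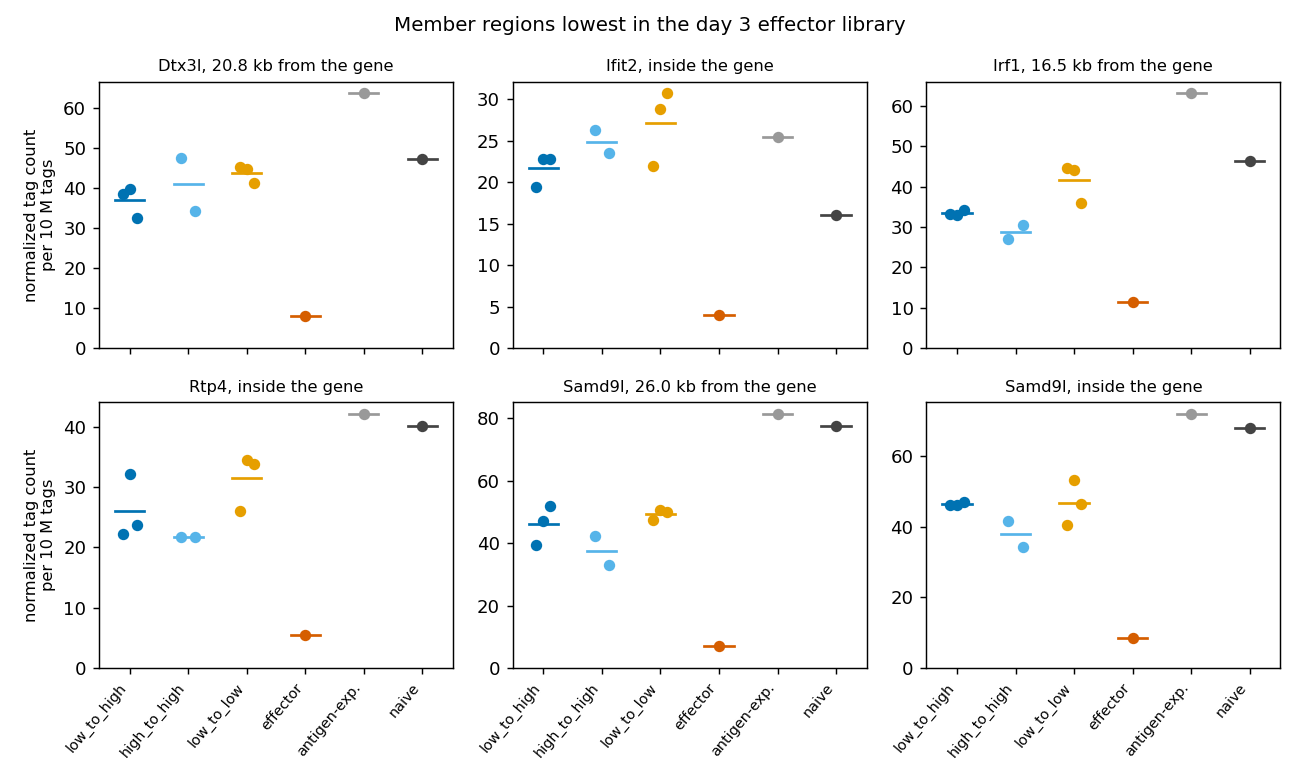
Normalized tag count per 10 M tags (vertical, from 0) of the 6 member regions that were at least 2-fold lower in the effector library than in each splenocyte library and the day 9 mean; points are libraries, short lines group means, and each panel is 1 region. The effector point is the lowest in every panel, which follows largely from how the regions were picked. The 3 day 9 group means lie between effector and the splenocytes in 5 panels and above the naive point at Ifit2.

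Relative to naive cells, day 9 cells had few differences at these genes. Of 65 member regions, 1 (1.54%, against 11.8% of all regions) was at least 2-fold higher and 2 (3.08%, against 1.51%) were lower, and the median was -0.21. The higher one, 31882 bp from Irf1 (chr11:53810256-53810540), had 16.73 ± 4.12 at day 9 (SD, n = 8), against 7.06 in naive cells (1.51). The next were Ifit2 (24.54 ± 3.76 against 16.1, 0.97), Ifit3 (28.5 ± 5.72 against 20.4, 0.85), Gbp7 (22.35 ± 3.91 against 17.2, 0.75) and Rtp4 (6.247 ± 1.53 against 5.46, 0.54). The lower ones were 11722 bp from Nlrc5 (chr8:94422383-94422613), with 11.99 ± 2.03 at day 9 against 51.2 in naive cells (-1.62), and 10199 bp from Herc6, with 8.556 ± 1.52 against 24.3 (-1.02). Usp18 regions (-0.96 and -0.68) and the Irf1 promoter (-0.68) followed. Leaving out 1 library changed these small counts. The Herc6 region no longer passed 2-fold without high_to_high replicate 1 or low_to_low replicate 2 (-0.97 each), which left 1 lower region. A Usp18 region passed without high_to_high replicate 2 (-1.03), for 3 lower regions, and Ifit2 passed without low_to_high replicate 1 (1.01), for 2 higher regions. Over promoter windows 0 of 21 member regions passed 2-fold, against 2.78% higher and 0.427% lower over all such regions. As deposited, 8 of the 65 were lower and 1 higher, against 7.83% and 5.87% of all regions.

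Relative to antigen-experienced cells, 0 of 67 member regions differed 2-fold at day 9 in either direction once centred, against 7.39% higher and 1.22% lower over all regions, and the median was -0.12. The extremes were Herc6 (8.556 ± 1.52 at day 9 against 21.9, -0.70), Ifih1 (10.03 ± 1.13 against 24.5, -0.64), Nlrc5 (11.99 ± 2.03 against 26.8, -0.54), Irf1 (16.69 ± 4.95 against 35.6, -0.52) and the Bst2 promoter (34.12 ± 5.39 against 72.4, -0.50) on the low side. On the high side were the Gbp5 promoter (25.12 ± 3.17 against 24.5, 0.60), the promoter of Xaf1 (25.25 ± 3.62 against 24.7, 0.60), Ifit2 (0.52), Trim25 (0.41) and Dhx58 (0.37). Over promoter windows the count was likewise 0 of 21, against 1.76% higher and 0.33% lower over all such regions. As deposited, 5 of the 67 were lower and 0 higher, against 11.1% and 1.98% of all regions, with medians of -0.69 for members and -0.59 for all.

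Antigen-experienced and naive splenocytes were close at most members. Of 98 member regions, 4 (4.08%, against 3.69% of all regions) were at least 2-fold higher in antigen-experienced cells and 2 (2.04%, against 1.07%) were lower, with a median of -0.10. The higher ones were the Irf1 region at 31882 bp (31.5 in antigen-experienced and 7.06 in naive cells, 1.85), the Usp18 region at 7415 bp (36.0 and 11.7, 1.38), the Psmb9 region at 1795 bp (16.6 and 6.0, 1.17) and a region 6578 bp from Ifit2 (18.5 and 7.46, 1.04). The fifth, inside Gbp7, had 20.9 and 8.79 (1.00). Both lower regions were at Nlrc5, with 26.8 and 51.2 at 11722 bp and with 13.6 and 26.3 at 6114 bp, each a difference of -1.07. Usp18 (-0.82), Trim25 (-0.75) and Oasl2 (-0.60) followed. Over promoter windows 0 of 24 member regions passed 2-fold, against 1.14% higher and 0.154% lower over all such regions. As deposited, 6 of the 98 were higher and 0 lower, against 5.45% and 0.576% of all regions. The B cell list had summed values of 325.7 in antigen-experienced and 148.8 in naive cells, of which Pax5 gave 144.1 and 39.39, and its part in these differences was not tested.

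The YFP states at day 9 were compared next. limma called 0 of 71 member regions (35 genes) higher or lower in YFP-high than in YFP-low libraries at an adjusted p under 0.05, against 0.329% higher and 0.00291% lower over all 34383 tested regions. At an unadjusted p under 0.05 there were 3 (4.23%, against 8.07% of all), and the median log2 fold change was 0.01 with a median SE of 0.11. The lowest p was at the Irf1 region at 31882 bp. It had 10.7, 14.8 and 15.1 in low_to_high, 14.7 and 15.2 in high_to_high, and 18.8, 23.7 and 20.8 in low_to_low libraries, which left no overlap between YFP states, with a log2 fold change of -0.34 ± 0.14 (SE, adjusted p = 0.469 by limma). The Dhx58 promoter (0.30 ± 0.13, adjusted p = 0.503) and the Nlrc5 region at 11722 bp (0.38 ± 0.16, adjusted p = 0.523) followed, and their values overlapped.

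Between high_to_high and low_to_low libraries limma called 0 of 71, against 0.558% higher and 0.0378% lower over all regions, with 4 members at an unadjusted p under 0.05 (5.63%, against 9.92%). Nlrc5 at 11722 bp came nearest, with 13.9 and 14.2 in high_to_high and 14.0, 11 and 8.59 in low_to_low libraries (0.62 ± 0.20, adjusted p = 0.187), values that overlap as deposited but not once centred. Without low_to_low replicate 1 this region was called (0.83, adjusted p = 0.0272). A second Dhx58 region (21.7 ± 0.283 against 20.83 ± 3.0, 0.36 ± 0.15, adjusted p = 0.412) and an Irf1 region 5917 bp from the gene (44.6 ± 4.81 against 66.43 ± 7.28, -0.27 ± 0.12, adjusted p = 0.436) followed.

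For low_to_high against low_to_low limma called 0 of 71, against 0.032% higher and 0.0% lower over all regions, and 2 members had an unadjusted p under 0.05 (2.82%, against 5.56%). With the replicate number as a block, which pairs these 2 groups, the count over all regions was 55 in place of 11, and that of members stayed at 0. The lowest p values were at Irf1 (31882 bp, -0.44 ± 0.15, adjusted p = 0.616), the Dhx58 promoter (0.39 ± 0.14, adjusted p = 0.715) and Usp18 (0.21 ± 0.12, adjusted p = 0.922). For low_to_high against high_to_high it called 0 of 71, against 0.0% in either direction over all regions, and 4 members had an unadjusted p under 0.05 (5.63%, against 5.09%). Those with the lowest p were Ifit2 (-0.32 ± 0.15), a region inside Ifi35 (0.33 ± 0.16) and Usp18 (0.27 ± 0.13), each with an adjusted p of 0.974. The 24 promoter regions tested ranged from -0.20 to 0.39 over the 4 comparisons.

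**Figure D4:**
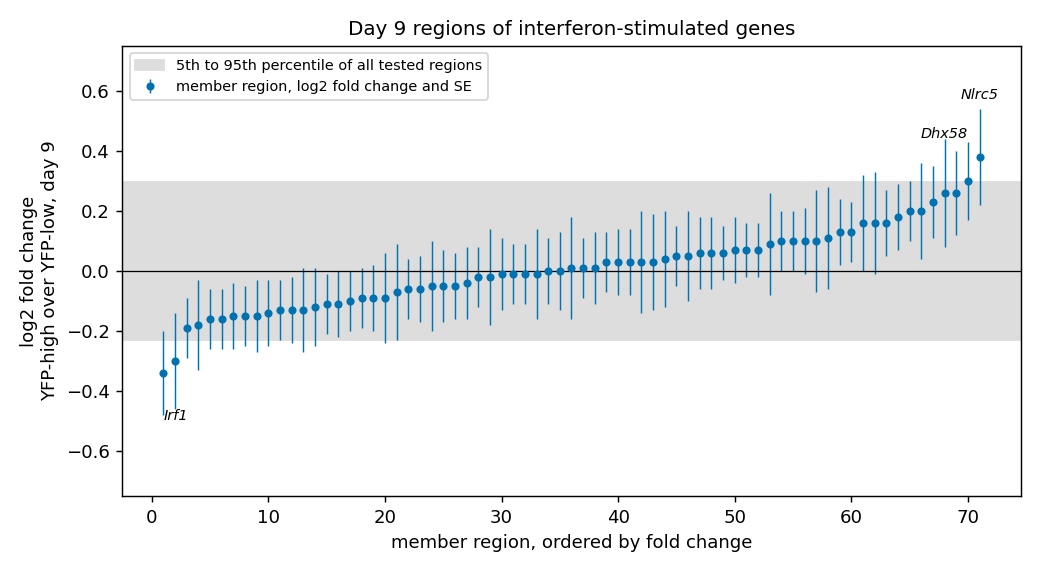
Log2 fold change of YFP-high (5 libraries) over YFP-low (3 libraries) at day 9 for the 71 member regions in rank order; points are limma estimates, bars 1 SE, and the grey band runs from the 5th to the 95th percentile of all tested regions (-0.23 to 0.30). Member values run from -0.34 (Irf1) to 0.38 (Nlrc5), and none passed the adjusted threshold.

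Centring matters for these counts. The share of tags in peaks was 9.01 to 10.2% in YFP-high and 10.4 to 12.5% in YFP-low libraries. Its part cannot be told apart from that of YFP state and was not tested. On the deposited scale the median of all regions was -0.22 for YFP-high against YFP-low and -0.30 for high_to_high against low_to_low, and the member medians were -0.21 and -0.30. On that scale limma called 5 and 11 member regions, all lower, among them regions of Irf1, Nlrc5 and the Psmb9 and Tap1 promoter in both comparisons. These were 7.04 and 15.5% of the 71 member regions, against 5.65 and 21.1% of all regions called lower on that scale.

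Presence of peaks gave a like account. The lists held 90 to 120 member regions at day 9, 108 in effector, 109 in antigen-experienced and 114 in naive cells. Of the regions of a library, members made up 0.202 ± 0.00862% (SD) in the 5 YFP-high and 0.194 ± 0.00566% in the 3 YFP-low ones, a difference of 0.00886 percentage points (two-sided exact permutation test, p = 0.214, smallest possible 0.0179). Effector cells alone had 30 of the 191 member regions (15.7%), against 23.4% of all regions. All 8 day 9 libraries and no splenocyte library had a peak near Gbp3 (12.8 to 21.3) and inside Gbp7 (5.92 to 11.3), Ifi35 (15.8 to 27.5) and Parp14 (6.97 to 10.3), of which those of Gbp3 and Gbp7 were also in effector (5.17 and 12.1). These 4 were 2.09% of the member regions, against 1.87% of all regions. Both splenocyte libraries and no day 9 library had a peak 6114 bp from Nlrc5 and another 31041 bp from Samd9l (21.3 in antigen-experienced and 27.2 in naive cells), which made 1.05% of the member regions, against 2.11% of all.

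Other genes of the pathway were counted in the same way, beside the 14.6% higher and 6.1% lower of all regions in effector against naive cells. Of 55 regions of 15 receptor and signalling genes, 7 were at least 2-fold higher in effector than in naive cells and 7 lower, with a median of -0.10. Of 13 regions of the interferon genes themselves, 7 were at least 2-fold higher in effector than in naive cells and 2 lower, with a median of 1.02. For sensors 0 of 15 were higher and 1 was lower, and for further antigen presentation genes 1 of 9 was higher and 1 lower, with medians of -0.29 and -0.59. Of 71 regions of 37 further stimulated genes, 14 were higher and 12 lower with a median of -0.09. In that last list limma called a region of Samhd1, which encodes an enzyme that depletes nucleotides, higher in YFP-high than in YFP-low libraries (0.69, adjusted p = 0.00408) and in high_to_high than in low_to_low libraries (0.90, adjusted p = 0.00119), 1 of 83 regions tested, against 0.329% and 0.558% of all regions called higher. With the percentage of tags inside peaks in the model, limma called 0 regions of any gene in either comparison, Samhd1 included. That percentage was lower in every YFP-high than in every YFP-low library, so it cannot be told apart from YFP state.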

How the data were processed

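ATAC-seq libraries of 11 sorted mouse CD8 T cell samples were analysed as 6 groups. The authors deposited 1 peak list per library, made from that library alone by HOMER 4.10 findPeaks, per the file headers. Per the same headers a peak had to pass a false discovery rate of 0.001, a 4-fold excess over its 10 kb neighbourhood and a local Poisson p of 1e-04. The deposited signal is HOMER's normalized tag count (scaled to 10 M tags per library), and a ratio gives each peak's fold over local background, per the file headers. Bowtie2, mm10 and DESeq2 (its role not given) also stand in the submitters' processing notes. The weakest peak of a list held 8 to 14 tags, so a lower region is missing from it. Intervals cover counting error only.

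Peaks on autosomes and X sharing 1 bp or more became 1 region (the same 111041 regions with bedtools 2.31.1), each library taking its strongest peak. Regions went to the nearest protein-coding RefSeq gene span (GRCm38.p6) within 100000 bp, which gave 94.4% a gene, and 4 member regions were tied between genes. Promoter regions overlap the window from 250 bases before to 50 after a gene start in RefSeq's table. Members not in that table (Mx1, Mx2, Oas2, Usp18, Dhx58, Parp9, Parp14, Rtp4, Zbp1, Nlrc5) took the strongest region over an end of the gene span, where there was one.

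limma 3.58.1 (R 4.3.3; lmFit, eBayes with trend) was fitted to log2(normalized tag count + 1), with each library's median set to 0, on 34383 regions, those with a peak in every one of the 8 day 9 libraries. The YFP states were fitted as 5 against 3 libraries, and the other comparisons in 1 model of 3 groups. A Benjamini-Hochberg adjusted p under 0.05 over all regions was a call. Fold changes on this scale understate changes of low values. Comparisons with a single library have no test and use centred log2 differences, with 1 (2-fold) as the bound and, for day 9, all libraries on the same side. Scripts were tested on simulated data. Same-numbered low_to_low and low_to_high libraries deviated together (correlations 0.298, 0.136 and 0.161). These numbers may therefore pair the samples, which the labels do not state, and the main models left this out. With 2 high_to_high libraries the deviations are mirror images. Their same-numbered correlations (-0.0407 to -0.00121) cannot show whether that group is paired. Named were the 3 member regions of lowest p per test, the 5 highest and 5 lowest per single-library comparison, promoters with the 6 highest or 3 lowest means or with missing peaks, and members with most or no regions. Members and lists were chosen with earlier results of these data known. Alternatives covered centring, pseudocount, filters, merging, gene distance, the replicate block, the share of tags in peaks and leaving out replicates.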

Additional observations from a re-analysis of the deposited data

Results flagged for a closer look

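Dixon's test at its 95% critical value was applied to 62 sets of values, the 5 YFP-high or all 8 day 9 libraries, and chance flags about 1 in 20 such sets. It singled out 1 library in 5 of them. The Irf1 region at 31882 bp had 10.7 in low_to_high replicate 1, below the other YFP-high libraries at 14.7 to 15.2. The Ifit1 promoter had 24.8 in high_to_high replicate 2, above the others at 21.1 to 21.8. In low_to_low replicate 2 the Usp18 promoter had 41.8, above the other day 9 libraries at 21.7 to 28.6, and the Gbp7 promoter had 37.3, above the others at 28.9 to 32.1. The Nlrc5 promoter had 51.1 in low_to_high replicate 2, above the other YFP-high libraries at 33.1 to 37.7. The values are on the deposited scale, on which low_to_low replicate 2 also had the highest share of tags in peaks at day 9 (12.5%); its part was not tested.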

How the results depend on the processing

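Of the main results, 141 recomputed values kept their direction and their side of the threshold or stayed within the spread between replicates (within 1.5 times for counts), 25 moved and 1 reversed. The count of member regions called by limma was 5 for YFP-high against YFP-low and 11 for high_to_high against low_to_low without centring (7.04 and 15.5% of member regions, against 5.65 and 21.1% of all regions, all of the member calls lower), and 0 to 1 for high_to_high against low_to_low when each replicate was left out. When each library's percentage of tags inside peaks was added to the model, limma called 0 regions of any gene in all 4 comparisons. That percentage was lower in every YFP-high than in every YFP-low library. In comparisons of YFP-high with YFP-low libraries it therefore cannot be told apart from YFP state. With the replicate number as a block the count of member regions called was 0 in all 4 comparisons. The block moved the count over all regions from 114 to 213, 205 to 374, 11 to 55 and 0 to 4 in the order of the report. Same-numbered low_to_high and low_to_low libraries are those that deviated together. The share of member regions differed by 0.0056 to 0.0112 percentage points when each replicate was left out.

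Without centring the median member difference was -1.22 for effector against naive, -1.22 for effector against antigen-experienced, -0.61 for day 9 against naive, 0.72 for day 9 against effector and -0.69 for day 9 against antigen-experienced, and it reversed to 0.07 for antigen-experienced against naive, where all regions had 0.16. With cyclic loess the medians were -0.43, -0.23, -0.12, 0.24 and -0.07 in the order of those 5. With a pseudocount of 5 they were -0.46 for effector against naive and 0.19 for day 9 against effector. With a mean of at least 10 they were -0.37 for effector against naive, -0.15 for effector against antigen-experienced, -0.15 for day 9 against naive and -0.07 for day 9 against antigen-experienced. With peaks at least 6-fold over local background they were -0.16 for day 9 against naive and 0.38 for day 9 against effector. With regions of a mean of at least 20, a choice made after seeing the data, they were -0.26 for effector against naive, -0.11 for effector against antigen-experienced and 0.23 for day 9 against effector. Leaving out each replicate gave -0.23 to -0.21 for day 9 against naive, 0.23 to 0.31 against effector and -0.13 to -0.09 against antigen-experienced. Without centring, day 9 against antigen-experienced reversed at Dhx58 (-0.20), Trim25 (-0.16) and Ifit2 (-0.06). Where no value shows the cause, the cause was not tested. Single libraries and the level at which peaks are listed limit these results.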

Other observations

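Promoter regions with ISRE letters were also counted over the whole genome. In effector against naive cells, the 221 promoter regions with an ISRE core that were not member regions had a median centred log2 difference of -0.45, with 13 (5.88%) at least 2-fold lower and 12 (5.43%) higher. The 7020 promoter regions with neither ISRE nor GAS letters had a median of -0.37, with 3.35% lower and 5.48% higher. The 11 member promoter regions with an ISRE core had a median of -0.54, with 2 lower, and the 8 with neither motif a median of -0.69, with 2 lower. For day 9 against effector, the non-member ISRE promoter regions had a median of 0.14 and those with neither motif 0.05. Member promoter regions had the opposite order, with medians of 0.07 for the 10 with an ISRE core and 0.41 for the 6 with neither motif.

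At the interferon genes, 10 of 18 regions were at least 2-fold higher at day 9 than in naive cells, with a median of 1.12, against a member median of -0.21, while 11.8% of all regions were higher and 1.51% lower. The naive library is common to both values. Against antigen-experienced cells, 2 of 16 regions of the interferon genes were at least 2-fold higher at day 9 and 1 was lower. Their median was -0.05, while 7.39% of all regions were higher and 1.22% lower. Regions of 4 interferon genes entered each of these comparisons.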
